A study of Mus musculus with 3 samples.

Results

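TEP is the label of the spots over the temporal association area and its rhinal neighbours at the lateral side of the mouse cortex. Its spots were chosen by the area label in the deposited table of spots, in which 280 of 8549 spots carry TEP, and were placed on the slide through their barcodes. They were 85 of 2881 spots in the CON section, 81 of 2828 in the RES section and 114 of 2840 in the SUS section. Gene expression was measured with Visium of 10x Genomics, which captures RNA of a tissue section on a hexagonal grid of spots, each covering several cells or parts of cells. The design held 1 coronal section of the left brain from each of 3 male C57BL/6J mice of 8 weeks, and the question was how mice that differ in their response to chronic social defeat stress (CSDS) differ across brain areas. The CON mouse was an undefeated control. The RES (resilient) and SUS (susceptible) mice went through 10 days of CSDS, in which a larger CD-1 male attacks the mouse each day, and were set apart by a test of social interaction. Tissue was taken soon after the last exposure.

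With 1 section a condition, neither the condition nor the animal can be told apart from the section. Spots of a section are not replicates, so no test between conditions was made. Medians are given over the spots of a section, with a 95% order-statistic interval that treats spots as independent although neighbouring spots share tissue. The whole section of CON held 37536349 UMIs, that of RES 31196847 and that of SUS 34979160. UMIs are counts of distinct RNA molecules, and no TEP spot held fewer than 1000.

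The temporal association area joins auditory and visual cortex to the rhinal areas below it. The perirhinal cortex passes that information on to the entorhinal cortex and the hippocampus, exchanges it with the amygdala, and is best known for the recognition of familiar objects. Its neighbours on the slide were AUD (auditory cortex) above, ENTl (lateral entorhinal area) and CTXsp (cortical subplate, which includes amygdala nuclei) below, and CNU (cerebral nuclei) on the deep side.

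TEP formed 1 unbroken patch in each section. It covered 14 grid rows in CON, 11 in RES and 12 in SUS, with a median of 6, 8 and 11 spots a row. Counted once for each TEP spot it touches, a neighbouring spot was TEP in 89.6% of cases in CON, against 89.0% for RES and 90.5% for SUS. All other neighbours were AUD, CNU, ENTl or CTXsp. In each section the border with AUD ran along a grid row, with every AUD spot above it. The patch lay at the same grid places in part only, since 34 places were TEP in all 3 sections. The label could be checked by place alone, because counts of single genes were not analysed here. The place between auditory and entorhinal cortex is that of the temporal association and rhinal areas. The study's key gives TEP an entorhinal portion as well, while ENTl has a label of its own.

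The patch did not reach the outside of the brain in every section. In CON 14 of 85 TEP spots and in RES 11 of 81 stood in the last columns of the slide's grid, and none stood beside a place without tissue, so the cortex ran on beyond the slide. In SUS no TEP spot stood in those columns and 12 of 114 stood beside a place without tissue. Counted in grid steps from the deep border, which is the nearest spot of CNU, CTXsp or fiber tracts, TEP reached step 8 in CON, 9 in RES and 12 in SUS. Steps 1 to 7 held at least 5 TEP spots in each section and are called inner here, with 84 CON spots, 68 RES spots and 69 SUS spots. The outer steps held 1, 13 and 45 spots, so the outermost cortex of TEP was seen in SUS alone.

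**Figure D1:**
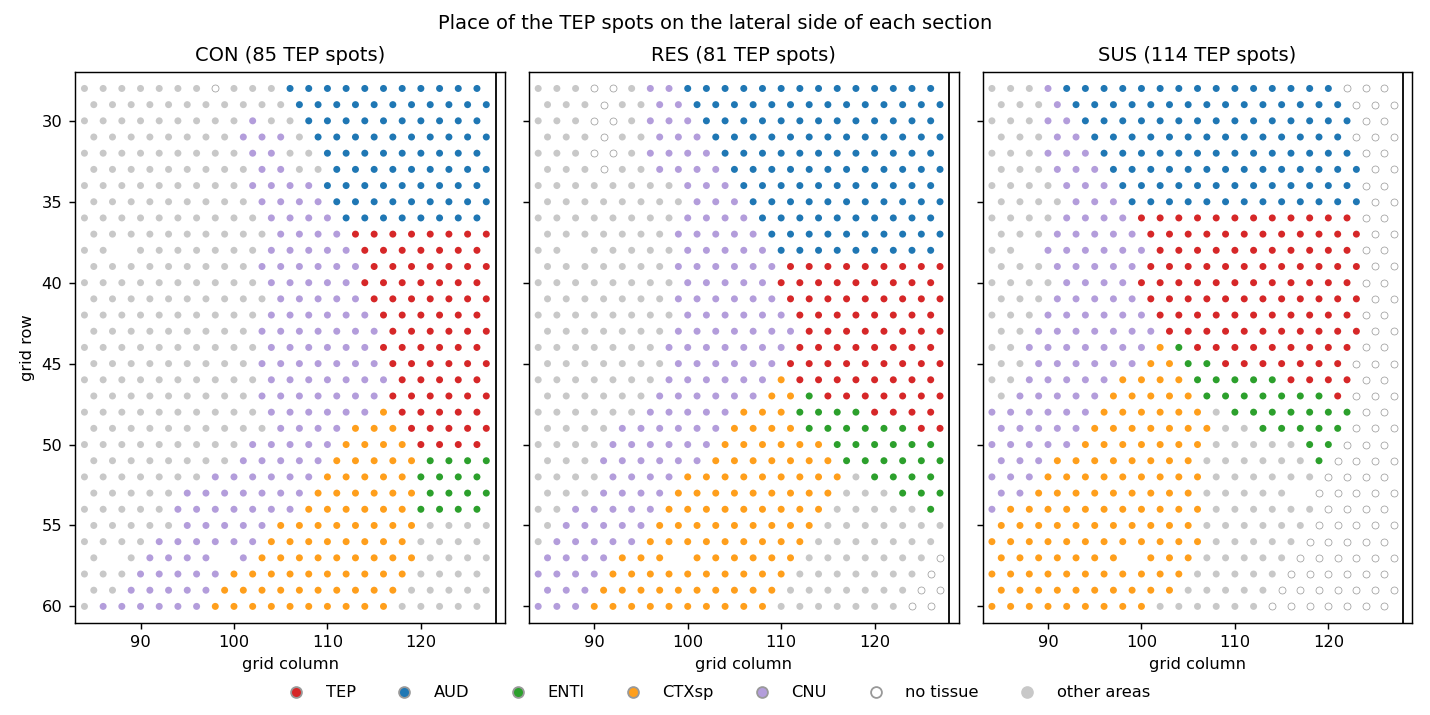
Grid column against grid row for the lateral side of the CON, RES and SUS sections, with spots coloured by area, open circles for places without tissue, blanks for places not in the table of spots, and a line at the slide's edge. TEP (85, 81 and 114 spots) runs into the slide's edge in CON and RES and stops at the tissue edge in SUS.

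UMIs per TEP spot were highest in the CON section. In CON they ran from 7797 to 23950 with a median of 15829 (14823 to 17041, n = 85). In RES they ran from 4047 to 27566 with a median of 10577 (9741 to 11693, n = 81). In SUS they ran from 1933 to 27837 with a median of 9580.5 (8997 to 10611, n = 114). The ranges overlapped widely, and the highest single spots were in RES and SUS, while the intervals of RES and SUS lay below that of CON. The median of RES was 0.668 times that of CON (0.572 to 0.789) and the median of SUS 0.605 times (0.528 to 0.716). SUS against RES gave 0.906 (0.769 to 1.09), an interval that includes 1. Over all spots the section medians were 12912 in CON, 10054.5 in RES and 10947.5 in SUS. Divided by these, TEP of RES was 0.858 times CON and TEP of SUS 0.714 times. A spot with fewer cells and a spot with less RNA per cell cannot be told apart in these counts.

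The other Isocortex areas differed much less between sections. These are RSP (retrosplenial area), PTL (posterior parietal association area), SSp (primary somatosensory area) and AUD, and their pooled median of RES was 0.896 times that of CON (0.863 to 0.935). For SUS it was 0.941 times (0.895 to 1.01). Taken singly, their ratios to CON ran from 0.882 in PTL to 0.952 in RSP for RES, and from 0.906 in PTL to 0.988 in SSp for SUS. TEP was thus outside the range of the other 4 areas in both sections. The areas that adjoin TEP on its deep and lower sides also had lower medians in RES and SUS than in CON. CNU had a median of 12198 UMIs in CON, 8101 in RES (0.664 times, 0.545 to 0.787) and 7362.5 in SUS (0.604 times, 0.517 to 0.681). CTXsp gave 0.631 for RES (0.573 to 0.717) and 0.578 for SUS (0.526 to 0.686). ENTl gave 0.635 (0.428 to 1.01) and 0.707 (0.420 to 0.969). Of all 17 areas, 5 had a lower ratio than TEP in RES and 3 in SUS.

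Within a section, TEP changed its rank among areas. In CON its median UMIs were 0.956 times the pooled median of the other Isocortex areas (0.881 to 1.05), and TEP stood at place 3 from the lowest of the 5 Isocortex areas. In RES the ratio was 0.713 (0.645 to 0.806) and in SUS 0.615 (0.554 to 0.705), and TEP was the lowest of the 5 in both. Counted over all 17 areas from the lowest median, TEP stood at place 14 in CON, 9 in RES and 5 in SUS. Spread within the patch was also wider in RES and SUS. The upper quartile over the lower quartile was 1.45 in CON, 1.65 in RES and 1.88 in SUS, against 1.39, 1.61 and 1.80 in the other Isocortex areas, so the spread widened there too.

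**Figure D2:**
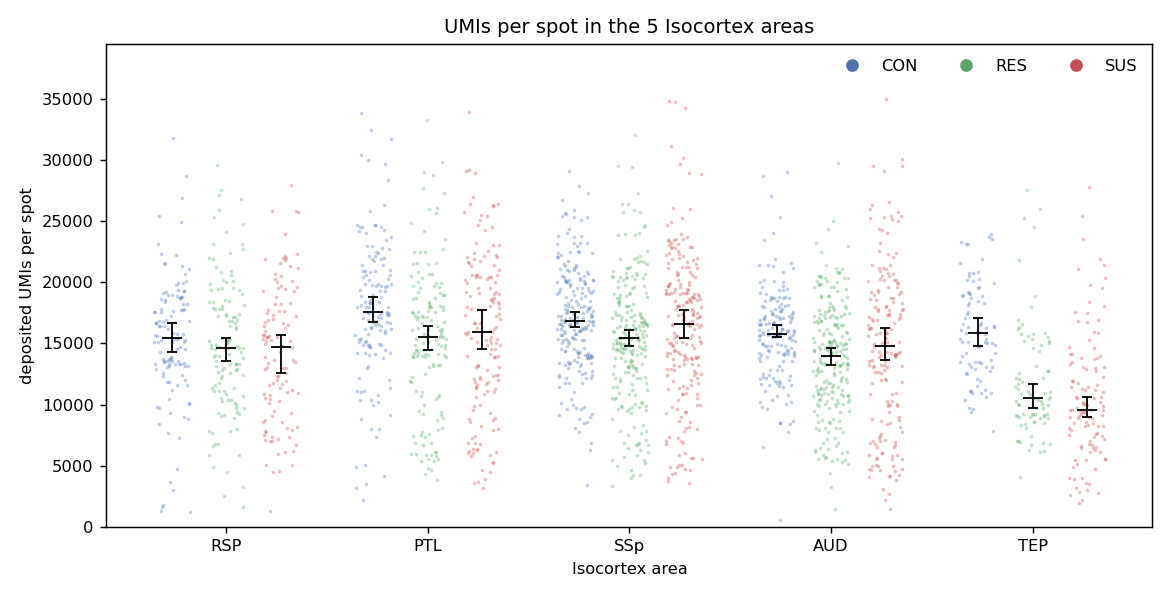
Deposited UMIs per spot in the 5 Isocortex areas, with a point for each spot, and the median with its 95% interval in black for CON, RES and SUS. The TEP medians are 15829, 10577 and 9580.5, whereas no median of the other areas is below 13993.

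Part of the difference of SUS went with the outer cortex. In SUS the 45 outer TEP spots had a median of 6803 UMIs and the 69 inner ones a median of 11780, a ratio of 0.578 (0.410 to 0.842). RES did not show this, since its 13 outer spots had a median of 11042 UMIs (9928 to 15178) and its 68 inner ones 10374 (9231 to 12100). At the inner steps the ratio to CON was 0.656 (0.554 to 0.816) for RES and 0.745 (0.605 to 0.899) for SUS, so SUS moved from 0.605 towards 1 and past RES. These inner ratios were a choice made after the shape of the patch was seen. Step by step, RES was below CON at 7 of 7 inner steps, with a median ratio of 0.688. SUS was below CON at 6 of 7, with a median ratio of 0.767.

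The shape across the steps differed between sections. In CON the median UMIs were 14219 at the first step, 18571 at the third and 15776 at the seventh. In RES they were 10263.5, 11693 and 9168 at these steps, with the highest value, 15751, at the second. The eighth step of RES had 10834 and the ninth, with 4 spots, 14765.5, where SUS had 8503 and 7344. In SUS they were 10406.5 at the first step, 17518 at the second, 9523 at the seventh and 5525 at the twelfth. The second step was the only inner step at which SUS lay above CON.

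AUD, the neighbour of TEP along the same deep border, gave another picture. At its inner steps the RES medians were below those of CON at 4 of 7 steps and the SUS medians at 3 of 7, with median ratios of 0.818 and 1.04. Inner TEP over inner AUD was 0.986 in CON (0.871 to 1.11), 0.704 in RES (0.558 to 0.915), with SUS at 0.686 (0.542 to 0.862). Step by step TEP was below AUD at 3 of 7 inner steps in CON, where the median ratio was 1.01, and at 5 of 7 in RES and in SUS, with median ratios of 0.706 in both. The other steps in RES and SUS were the first and the second. At the first step TEP had 10263.5 UMIs and AUD 6077 in RES, and in SUS they had 10406.5 and 7068.5. A step is a distance and not a cortical layer, and the cortex of AUD is deeper in steps. The outermost steps of AUD with at least 5 spots were also poor in UMIs, with 9930 at step 13 in CON, 5596 at step 16 in RES and 4974 at step 14 in SUS.

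**Figure D3:**
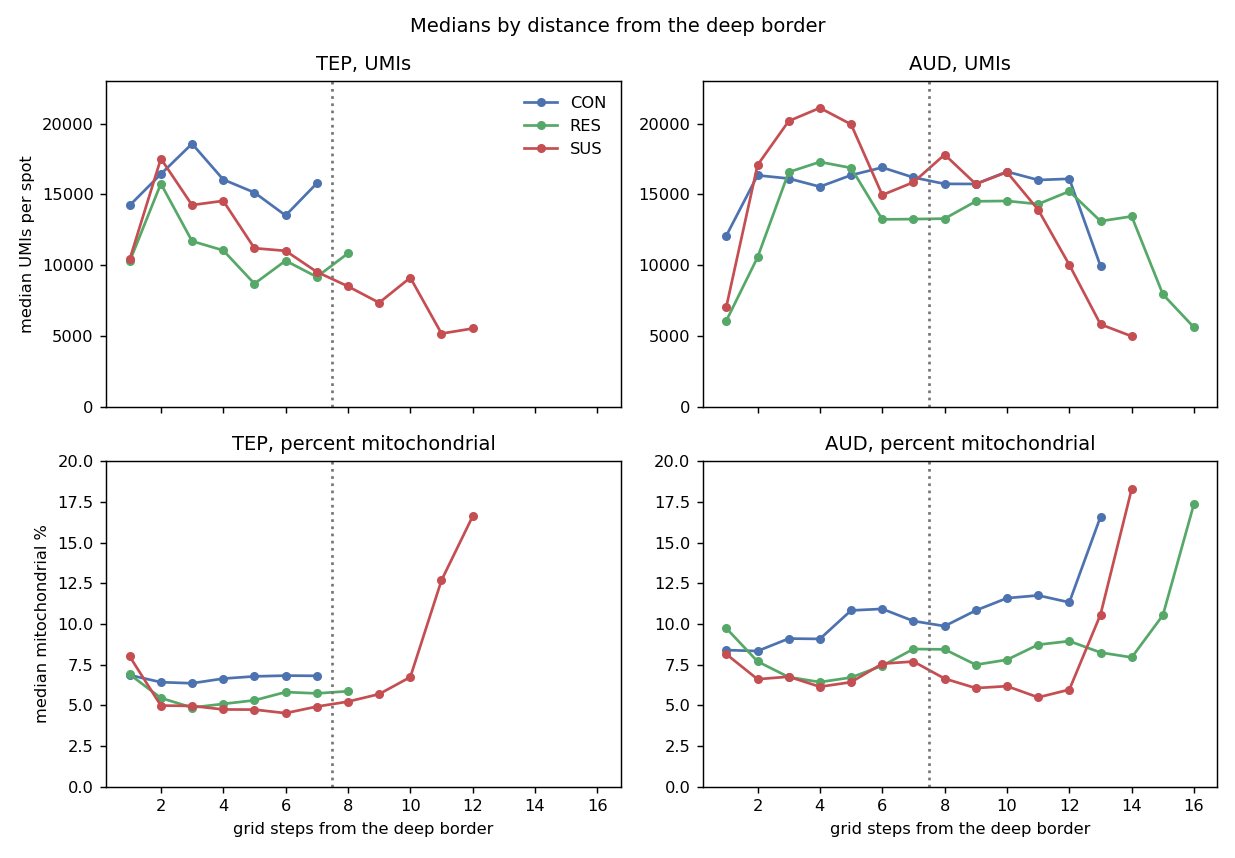
Median UMIs per spot (top) and median mitochondrial percentage (bottom) against grid steps from the deep border in TEP and AUD, for steps with at least 5 spots, with a dotted line after step 7. TEP medians of RES lie below CON at 7 of 7 inner steps, and the mitochondrial percentage of TEP in SUS climbs to 16.6 at step 12.

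UMIs were also lower on the entorhinal side of the patch than on the AUD side. The first 4 rows had a median of 18296 in CON, 12612 in RES and 11307 in SUS. The last 4 rows had 14323, 8957 and 8097. Row and depth are not independent here, since the patch is slanted and has fewer spots in its last 4 rows (20, 21 and 21) than in its first 4 (29, 35 and 47). Spearman's rho of row and UMIs over the inner spots, as a description, was -0.14 in CON (84 spots), -0.54 in RES (68) and -0.51 in SUS (69).

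Genes per spot followed the UMIs. The median TEP spot had 5316 genes in CON (3552 to 6477 over spots), 4222 in RES (2259 to 6844) and 4075.5 in SUS, or 0.794 (0.742 to 0.881) and 0.767 (0.709 to 0.842) times CON. At matched UMIs, where each TEP spot was set against the spots of the other Isocortex areas within 5% of its UMIs in the same section, the difference was close to nil. The median ratio of genes was 0.997 in CON (0.993 to 0.999, all 85 spots matched), 1.003 in RES (0.997 to 1.01, all 81) and 1.001 in SUS (0.997 to 1.005, 112 of 114). Against AUD the ratios were 0.999, 0.999 and 1.01.

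Matching TEP spots of RES and SUS to TEP spots of CON left 60 of 81 and 72 of 114 spots, since the others had no CON TEP spot within 5% of their UMIs. Over these the gene ratio was 0.992 in RES (0.986 to 0.999), while SUS gave 0.998 (0.990 to 1.004). In the other Isocortex areas it was 0.982 (0.980 to 0.984) and 0.988 (0.986 to 0.990). The TEP medians were thus within 1% of 1, over matched spots only. In SUS 0.998 over 72 matched spots stands against 0.767 over all 114 with UMIs left unmatched. At the inner steps the matched ratio was 0.987 in RES (0.982 to 0.992, 48 of 68 spots). SUS gave 0.993 there (0.985 to 1.0004, 56 of 69 spots).

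The mitochondrial percentage is the share of a spot's UMIs from transcripts of the mitochondrial genome, which encodes parts of the respiratory chain. TEP had the lowest median of the 5 Isocortex areas in each section. It was 6.74% in CON (6.46 to 6.85), 5.60% in RES (5.40 to 5.68), with SUS at 5.29% (5.01 to 5.69). Single spots ran from 4.50% to 9.60% in CON, from 3.78% to 10.0% in RES and from 3.80% to 24.2% in SUS. Over all 17 areas TEP was the lowest in CON and RES and second to ENTl, at 5.15%, in SUS.

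The next lowest Isocortex area was AUD in CON (10.3%) and RES (7.94%) and PTL in SUS (5.73%, interval 5.52 to 6.12). The intervals of the TEP and PTL medians in SUS overlapped, which does not settle whether they differ. RSP was the highest in each section, at 13.2%, 12.4% and 10.7%. The ratio of TEP to the pooled other areas was 0.602 in CON (0.565 to 0.624), 0.612 in RES (0.575 to 0.633), while SUS gave 0.734 (0.679 to 0.821).

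At matched UMIs the gap was as wide or wider. There the median ratio of TEP to the other Isocortex areas was 0.587 in CON, with 85 of 85 TEP spots below their matched spots. It was 0.546 in RES, with 81 of 81 below, and 0.710 in SUS, with 94 of 112 below. Against AUD at the same step from the deep border, TEP was below AUD at 7 of 7 steps in each section, with median ratios of 0.698 in CON, 0.722 in RES and 0.738 in SUS.

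The ends of the range differed as well. Above 10% mitochondrial lay 0 of 85 TEP spots in CON, which allows a share of up to 4.25% (exact Clopper-Pearson interval), against 72.6% of the spots of the other Isocortex areas. In RES it was 1 of 81 against 37.9%, and in SUS 21 of 114, or 18.4%, against 20.7%. Below 5% lay 2 of 85 TEP spots in CON, 14 of 81 in RES and 46 of 114 in SUS. In the other areas 0 of 638, 6 of 733 and 37 of 662 spots lay there. These shares compare unlike depths in CON and RES. TEP was cut off by the slide in those sections, with no spot beside a place without tissue. AUD had 7 of 165 such spots in CON and 9 of 231 in RES.

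**Figure D4:**
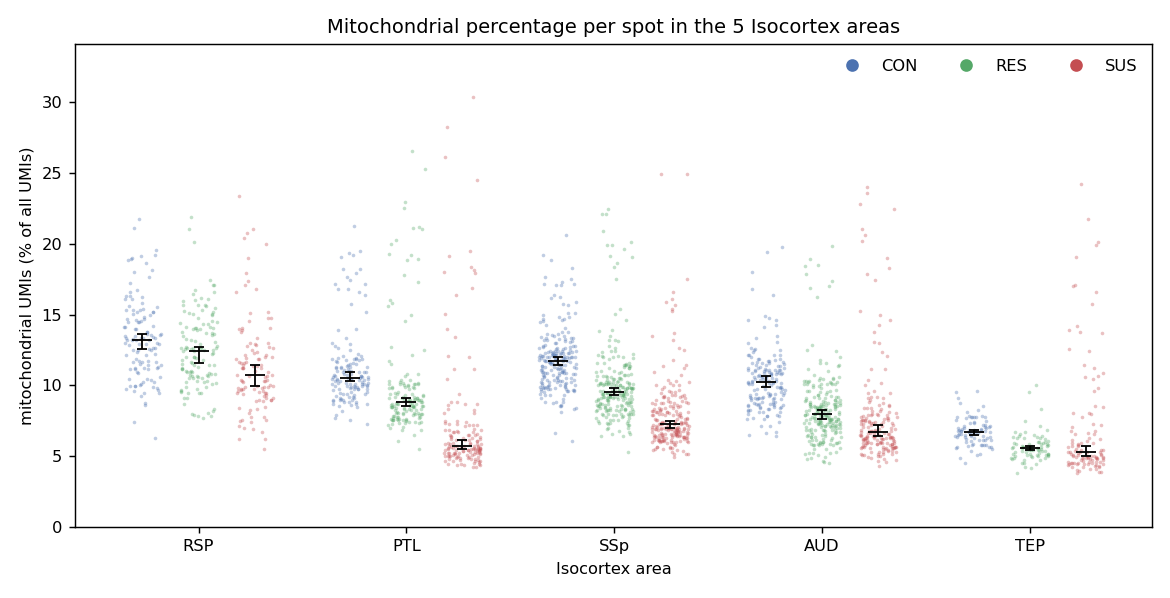
Mitochondrial UMIs as a percentage of all UMIs per spot in the 5 Isocortex areas, with a point for each spot, and the median with its 95% interval in black. TEP has the lowest median in each section (6.74%, 5.60% and 5.29%), and in SUS 21 of its 114 spots exceed 10%.

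The high spots of SUS stood near the tissue edge. Of the 21 TEP spots above 10%, 12 stood beside a place without tissue, 20 stood within 2 steps of such a place, and 1 stood at the second step from the deep border. The SUS TEP medians were 8.00% at the first step, between 4.52% and 4.99% at steps 2 to 7, 6.74% at step 10, 12.7% at step 11 and 16.6% at step 12. The 12 spots beside a place without tissue had a median of 16.8% (13.7 to 20.1), with 4939.5 UMIs and 1.36% red blood cell UMIs. The same climb was seen in AUD in all 3 sections, at the last steps with at least 5 spots, to 16.6% at step 13 in CON, 17.4% at step 16 in RES and 18.3% at step 14 in SUS, where 4 further spots at step 15 had 20.1%. In whole UMIs, recovered from the percentages as described under the processing, outer TEP spots of SUS had 617 mitochondrial UMIs and inner ones 684, a ratio of 0.902 (0.693 to 1.29). All UMIs together gave 0.609 (0.480 to 0.846) between the same spots.

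Between sections, the TEP percentage of RES was 0.831 times that of CON (0.788 to 0.880) and that of SUS 0.786 times (0.731 to 0.881). The other Isocortex areas gave 0.817 (0.786 to 0.857) and 0.644 (0.607 to 0.672), and for SUS their interval does not overlap that of TEP. At the inner steps SUS gave 0.725 (0.678 to 0.784). The direction in SUS depends on the summary, because the mean over spots was 7.18% in SUS and 6.75% in CON, 1.06 times, with the edge spots in it. In whole UMIs the median TEP spot of CON held 1162 mitochondrial UMIs, that of RES 631 and that of SUS 643. Along the rows of the patch the percentage differed most in CON, with 7.34% in the first 4 rows and 6.13% in the last 4. RES had 5.68% and 5.57% there, and SUS 5.42% and 5.30%.

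The ribosomal protein percentage, the share of UMIs from genes of the ribosome's proteins, differed little. In TEP its median was 7.05% in CON (6.75 to 7.25), 6.55% in RES (6.35 to 6.64), with SUS at 6.94% (6.81 to 7.14). RES was 0.928 times CON (0.875 to 0.984), while the other Isocortex areas gave 1.001 (0.982 to 1.02). SUS was 0.984 times CON (0.939 to 1.06). Against the other Isocortex areas TEP gave 1.01 in CON (0.961 to 1.05), 0.939 in RES (0.900 to 0.963), while SUS gave 0.980 (0.949 to 1.01).

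The measure varied more across the patch than between sections. From the deep border the TEP medians of CON went from 7.83% at the first step to 6.56% at the seventh. Those of RES went from 7.89% to 6.04% and those of SUS from 8.68% to 6.65%, and the twelfth step of SUS had 8.22%. Spearman's rho of step and percentage over the inner spots was -0.62 in CON, -0.71 in RES and -0.55 in SUS, over 84, 68 and 69 spots that share a library and lie side by side. At the same step TEP was below AUD at 7 of 7 steps in each section, with median ratios of 0.962, 0.870 and 0.913, although the areas as wholes gave 1.003, 0.953 and 0.970.

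The red blood cell percentage is the share of UMIs from genes of red blood cells, such as haemoglobin genes, and so follows blood left in the tissue. In TEP its median was 0.0228% in CON, 0.0533% in RES and 0.281% in SUS. That is 2.34 times CON in RES (1.46 to 4.16) and 12.3 times in SUS (7.88 to 22.8). The other Isocortex areas, pooled, gave 4.34 times (3.77 to 5.15) and 19.3 times (16.3 to 23.8). Taken singly they ran from 3.08 in AUD to 5.19 in SSp for RES, all above TEP, and from 10.8 in AUD to 29.0 in SSp for SUS, a range that holds the TEP ratio. Between spots of matched UMIs the TEP ratio to CON was 1.97 in RES (1.62 to 3.09), against 4.07 (3.79 to 4.35) in the other areas. For SUS it was 10.2 (7.27 to 13.01) against 17.2 (16.0 to 19.2). Such a ratio existed for 54 of 81 TEP spots in RES and 68 of 114 in SUS. In the other areas it existed for 696 of 733 and 619 of 662. Spots with no match, or with a matched CON median of 0, had none, which can leave out the largest ratios. The ratios to CON of TEP and of the other areas were all above 1, but whether TEP or the other areas gave the larger one depended on the summary. By means over spots TEP gave 2.83 for RES and 12.7 for SUS, against 3.01 and 10.2 in the other areas. With all UMIs pooled it gave 2.78 and 9.12, against 2.63 and 8.79. In whole UMIs the median TEP spot of CON held 4 red blood cell UMIs, that of RES 6 and that of SUS 31. No such UMI was found in 6 of 85 TEP spots of CON, and each TEP spot of RES and SUS held at least 1.

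A few spots carried much of it. In CON 1 TEP spot, with 2.54%, held 45.4% of all red blood cell UMIs of the patch. In RES 1 spot with 4.37% held 32.9%, and in SUS the highest spot, with 12.4%, held 9.11%. Above 1% lay 1 of 85 TEP spots in CON, 4 of 81 in RES and 25 of 114 in SUS, against 14 of 638, 34 of 733 and 126 of 662 in the other Isocortex areas. TEP against those areas gave 1.56 in CON (0.987 to 2.36), 0.842 in RES (0.667 to 1.09), while SUS gave 1.0004 (0.781 to 1.38), and all of these intervals include 1. By means over spots the ratios were 0.913, 0.856 and 1.13, and with all UMIs pooled 1.04, 1.10 and 1.08. Among medians, means and pooled values the direction turned in CON and RES. At matched UMIs the ratios were 1.44 in CON (1.04 to 1.80), 0.626 in RES (0.562 to 0.766) and, for SUS, 0.780 (0.616 to 0.981). These intervals leave out 1, but the ratios rest on medians as well. The direction for SUS also depended on the areas matched, since AUD spots alone gave 1.31 (1.08 to 1.51). Against AUD, RES stayed below 1 at 0.730 (0.621 to 0.865). CON gave 1.06 there, with an interval that includes 1 (0.704 to 1.31). In SUS the percentage was higher in the outer spots than in the inner ones, 0.609% against 0.230%, a ratio of 2.65 (1.14 to 4.77). In whole UMIs these spots held 36 and 30, a ratio of 1.20 (0.658 to 2.32), whose interval includes 1.

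**Figure D5:**
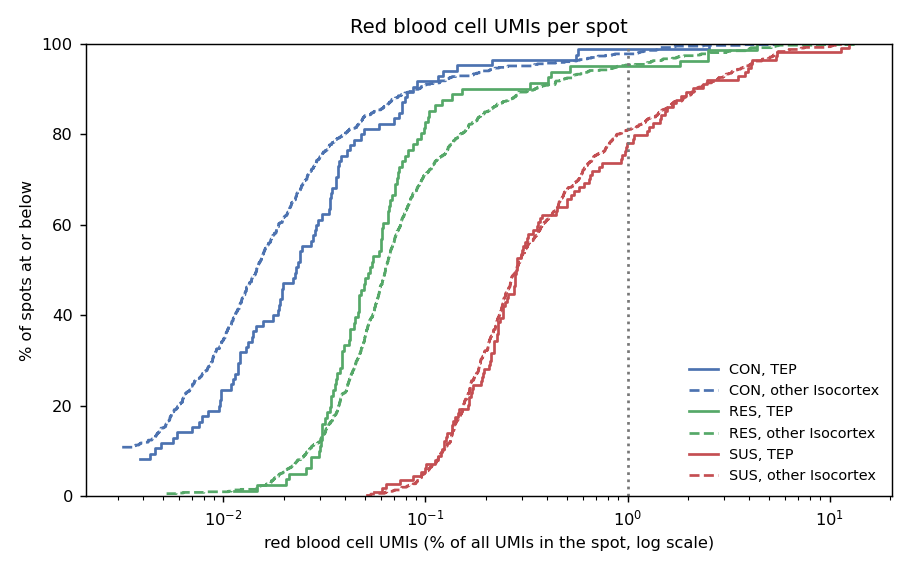
Cumulative share of spots against the red blood cell percentage (log scale) for TEP (solid) and the other Isocortex areas (dashed) of each section, with a dotted line at 1%, and spots at 0 counted in the share but not drawn. The curves order as CON, RES and SUS, with TEP medians of 0.0228%, 0.0533% and 0.281%.

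The spots just across the border were few. In AUD 8 spots adjoined TEP in CON, 9 in RES and 13 in SUS. Their median UMIs were 15298 (7795 to 21868), 13230 (8511 to 19279) and 14312 (6549 to 21103), and all TEP over them gave 1.03, 0.799 and 0.669. The intervals of these ratios included 1 in each section (0.678 to 2.19, 0.505 to 1.37 and 0.426 to 1.62). The TEP spots that touch AUD had medians of 16566, 15178 and 13034.5, so directly across the border the ratios were 1.08, 1.15 and 0.911. Their intervals all include 1, and at the AUD border TEP spots of RES were not below their neighbours.

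The mitochondrial percentage differed little directly across that border. The adjoining AUD spots had 8.30% in CON and the TEP spots that touch them 7.48%. For RES these values were 6.35% and 6.17%, and for SUS 5.93% and 5.54%. The ratios of 0.901, 0.972 and 0.934 were closer to 1 than those of the areas as wholes, 0.656, 0.705 and 0.792. The adjoining AUD spots themselves lay below the medians of all AUD, which were 10.3%, 7.94% and 6.68%. Genes per spot were 5270.5, 4840 and 5073 in the adjoining AUD spots, and 5414, 5266 and 4785.5 in the TEP spots beside them.

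Towards ENTl the UMIs and mitochondrial percentages of touching spots lay close together. The 4 adjoining ENTl spots of CON had a median of 15497.5 UMIs, the 9 of RES 9030 and the 12 of SUS 10448, and the TEP spots that touch them had 17210.5, 8925.5 and 8897. ENTl was thus as poor in UMIs as TEP in RES and SUS, and all TEP over it gave 1.17 in RES (0.773 to 1.52) and 0.917 in SUS (0.612 to 1.99). Its mitochondrial percentage was 7.42%, 5.80% and 4.85%, against 6.57%, 5.55% and 4.85% in the touching TEP spots. The ribosomal protein percentage in RES was 5.74% in the adjoining ENTl spots (5.63 to 6.35) and 6.45% in the touching TEP spots (5.75 to 7.34). The red blood cell percentage in SUS was 0.698% (0.211 to 0.908) and 0.214% (0.135 to 0.254). Both pairs of intervals overlap. As whole areas, TEP over ENTl gave mitochondrial ratios of 0.781 in CON (0.709 to 0.863) and 0.834 in RES (0.726 to 0.974), which leave out 1, and 1.03 for SUS (0.805 to 1.20). Taken whole, ENTl had a median of 14214 UMIs in CON, 9030 for RES and 10054 for SUS.

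Towards CTXsp the border was 4 spots long in CON, 2 in RES and 1 in SUS. The median of the 4 CON spots was 13230.5 UMIs (11836 to 21494 over spots), and the RES spots had 7253 and 7572. The SUS spot had 12793 UMIs, above the TEP median of that section, and 8.00% mitochondrial UMIs. As a whole area CTXsp had fewer UMIs than TEP in each section, with TEP over CTXsp at 1.22 in CON (1.08 to 1.41), 1.30 in RES (1.13 to 1.49), while SUS gave 1.28 (1.09 to 1.47). Its mitochondrial percentage was above that of TEP in CON (8.27%, TEP over CTXsp 0.815) and RES (7.96%, 0.704), and the ratio in SUS was 0.909 (0.833 to 1.02). The ratio of UMIs between TEP and CTXsp was thus nearly level over the 3 sections, whereas that between TEP and the Isocortex areas above it was not.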

How the data were processed

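With ST Pipeline, the authors mapped the reads to mm10, and their methods state a minimum of 200 UMIs a spot in Seurat. The deposited count is below that in 1 spot of CON outside TEP, with 188 UMIs, whose recovered total (below) is at least 207. The submitters' notes also name Space Ranger 1.0.0, bcl2fastq and cutadapt. The deposited table gives counts of UMIs and of genes per spot, from which some UMIs are missing (below), and 3 percent columns that the authors calculated. Areas are the authors' cluster labels. Image scale factors were left out, and no counts of single genes were analysed.

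The percentages do not rest on the deposited UMIs. For each spot the smallest whole total, up to 2 times the deposited UMIs, was sought at which all 3 percentages gave whole UMIs within 1e-06 and the missing UMIs covered the mitochondrial and red blood cell ones. It was found in all 8549 spots, but 666 of them, 26 of the 280 TEP spots included, allowed several totals, and there the smallest is a choice. In 7881 the percentages alone left 1 total, and in 0 of these were fewer UMIs missing than mitochondrial and red blood cell UMIs together. The median TEP spot lacked 7.23% (CON), 7.24% (RES) and 7.63% (SUS) of its total.

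Members and lists were chosen with earlier results of these data known. Medians have binomial order-statistic intervals, ratios cross their bounds, and shares have exact Clopper-Pearson intervals, all for counting error alone. Python 3.11.15, numpy 2.4.6, pandas 2.3.3 and scipy 1.17.1 were used, and the functions were tested on simulated data. Alternatives covered means, at least 1000 UMIs, edge and border spots, wider matching (10%), 10000 to 15000 UMIs, other scalings and neighbourhoods of 18 places.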

Additional observations from a re-analysis of the deposited data

How the results depend on the processing

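Of 249 recomputed values for 57 results, 223 stayed within the bounds set for the value reported and 26 left them. The bounds were its interval, with the range of the adjoining spots in its place for 2 results with 4 of them, the SUS over CON interval for the lowest over the highest section median, and 0.1 for 3 correlations. Of 237 ratios, 19 lay on the other side of 1 from the value reported, 17 of them where its bounds hold 1. The bounds left out 1 for the other 2. The mitochondrial ratio of SUS to CON in TEP was 1.06 by means, and genes at matched UMIs in CON were 1.01 by the residual of a line fitted to the other Isocortex areas. That line gave 1.02 in RES and 1.02 in SUS. In the window of 10000 to 15000 UMIs, where the median UMIs of TEP in RES and SUS were the lower ones (11302 and 11953 against 13178 and 12916), genes of TEP over the other areas were 0.926 and 0.969, and genes over CON 0.920 and 0.949. Matching within 10% gave 0.984 for genes in RES over CON. Dividing by the median of the section gave 0.858 for UMIs of RES over CON. The lowest over the highest TEP section median of UMIs was 0.605, and ranged from 0.605 to 0.906 when a section was left out, with 0.906 without the CON section. The inner steps, chosen after seeing the data, gave 0.745 for UMIs of SUS over CON and 0.725 for its mitochondrial ratio. Inner TEP spots over spots of the other areas at all depths gave a mitochondrial ratio of 0.677 in SUS. By means, TEP over the other areas gave mitochondrial ratios of 0.568 in RES and 0.852 in SUS and a red blood cell ratio of 0.913 in CON. Pooled over spots, a choice made after seeing the data, the mitochondrial ratio of SUS to CON was 0.916 and the red blood cell ratio of TEP to the other areas in RES 1.10. Taking the largest possible whole total, or only spots with 1 possible total, both also added later, left all ratios of whole UMIs that were recomputed within their intervals, with median mitochondrial UMIs of TEP at 1167, 631 and 665 by the largest total and 1135, 629 and 621.5 over single ones. At matched UMIs TEP over the other areas gave 0.546 for the mitochondrial and 0.897 for the ribosomal protein percentage in RES. For red blood cells it gave 0.626 in RES and 0.780 in SUS. Within 18 places, again counted once for each TEP spot, 83.2%, 82.2% and 84.8% of neighbours were TEP. The causes were not tested. No TEP spot was lost at 1000 UMIs, and CTXsp in RES and SUS, with under 4 adjoining spots, was given as values with no ratio. No paired analysis was possible because each condition has 1 section and the labels give no replicate numbers.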

Other observations

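The recovered totals hold a further class of UMIs, those that are missing from the deposited count and are neither mitochondrial nor of red blood cells. The median TEP spot had 83 of them in CON (78 to 90), 166 in RES (160 to 186), with SUS at 183 (169 to 193), although UMIs in all were fewest in SUS. Over the 254 TEP spots with 1 possible total these medians were 82, 165.5 and 181.5. Pooled over the patch they made up 0.496% of the total in CON, 1.36% for RES and 1.59% for SUS. In the other Isocortex areas they were 0.476%, 0.955% and 0.956%, so the sections differed there too. Per spot, TEP over the other areas gave 0.965 in CON (0.876 to 1.08), 1.08 in RES (1.01 to 1.26), with SUS at 1.17 (1.04 to 1.26). In SUS these UMIs were nearly as many in outer TEP spots (170) as in inner ones (186), whereas ribosomal protein UMIs were 571 and 875. Which genes they come from was not analysed here.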
